A study of Mus musculus with 73 samples.

Results

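The genes described here write, maintain, remove or read DNA methylation in the early mouse embryo, except Smchd1, which encodes a chromatin silencing protein. They are 10 of the 25220 gene symbols in the expression table, namely the DNA methyltransferase genes Dnmt1, Dnmt3a, Dnmt3b and Dnmt3l, the dioxygenase genes Tet1, Tet2 and Tet3, and the partner genes Uhrf1, Smchd1 and Zfp57. They were chosen by name, and all 10 were found in the table and passed the filter on low values. The study is about the histone variant H3.3 in early embryos. Its 8 RNA-seq libraries were analysed, while the other 65 samples were not analysed here.

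The libraries fall into 3 groups: 8-cell embryos with p150DN (3 libraries), blastocysts with EGFP (2 libraries) and 8-cell embryos with EGFP (3 libraries). p150DN is a dominant-negative form of p150, the large subunit of the histone chaperone CAF-1, which is encoded by Chaf1a, and EGFP, a fluorescent protein, served as the control. All embryos were C57BL/6 and C3H hybrids cultured in KSOM medium, and libraries were prepared from total RNA of cell lysates with a stranded SMART-seq kit. The labels do not say how p150DN or EGFP was introduced, how many embryos were pooled, or whether replicates came from separate cultures. The p-values therefore reflect how far these particular libraries scatter, and that scatter may be technical.

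DNA methylation in mammals is copied onto new strands at replication by DNMT1, which UHRF1 brings to half-methylated CpG sites, and is laid down anew by DNMT3A and DNMT3B with the catalytically inactive cofactor DNMT3L. TET enzymes oxidise methylcytosine, a first step of its removal. Between fertilisation and the blastocyst the mouse genome loses most of its methylation while imprinted regions keep theirs, a protection to which ZFP57 contributes, and new methylation is set after implantation. SMCHD1 is a chromatin protein required for silencing of the inactive X chromosome and of some imprinted genes.

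Levels are given in FPKM, fragment counts divided by gene length in kilobases and by library depth. Between 16578221 and 22488477 fragments were counted per library, and the least covered value among the 10 genes, Dnmt3l in EGFP 8-cell replicate 2, rested on 258 fragments. Chaf1a was at 165, 254 and 238 FPKM in p150DN 8-cell embryos, 26.5 and 27.2 FPKM in EGFP blastocysts and 27.7, 30.2 and 28.8 FPKM in EGFP 8-cell embryos. The label p150DN thus went with a Chaf1a level above every EGFP library, in which transcripts of the introduced form and of the embryo's own gene cannot be told apart. Summed trophectoderm markers (5 genes) lay at 250 to 452 FPKM in p150DN 8-cell embryos, 1008 to 1080 FPKM in EGFP blastocysts and 19.996 to 26.6 FPKM in EGFP 8-cell embryos. Summed inner cell mass markers (3 genes) lay at 427 to 631, 827 to 882 and 262 to 413 FPKM in the same order of groups, and primitive endoderm markers (3 genes) at 91.6 to 140, 142 to 150 and 62.0 to 137 FPKM. Nearly all of the primitive endoderm sum was Gata6, at 87.2 to 137, 137 to 142 and 60.0 to 135 FPKM. Pdgfra was at most 6.81 FPKM. Sox17 was at most 0.0884 FPKM in 8-cell embryos of either group and at 1.44 and 1.31 FPKM in EGFP blastocysts. Summed oocyte markers (5 genes) lay at 26.4 to 58.5, 7.07 to 7.40 and 57.1 to 67.1 FPKM, and 2-cell markers (2 genes) at 0.543 to 8.49, 0.0228 to 0.106 and 1.13 to 5.74 FPKM. Of the 2-cell markers, Zfp352 was at 0.543 to 8.43, 0.0228 to 0.0393 and 0.743 to 4.53 FPKM. Zscan4d was at 0 to 0.231, 0 to 0.0670 and 0.386 to 1.22 FPKM, lower in every p150DN library than in every EGFP 8-cell library. Summed cumulus and granulosa cell markers (5 genes) lay at 5.28 to 12.5, 1.53 to 1.79 and 17.7 to 23.7 FPKM. Nearly all of that sum was Amhr2, at 4.95 to 11.8, 1.302 to 1.56 and 17.5 to 23.7 FPKM, while the other 4 were under 1 FPKM in all 8 libraries. Of 3 blood cell markers all were, with 1 of them at 0. The libraries are bulk samples, in which fewer cells of a type and less RNA per cell cannot be told apart.

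Promoters of 4 of the genes are shown because these genes had the widest spread between groups. Each window holds 250 bases before and 50 bases after an annotated start, read 5′ to 3′ on the gene's strand, from RefSeq on GRCm38.p6 (the assembly of mm10), with every CpG, the site of methylation, in capitals. Tet2 lies at chr3:133463677-133545136 on the minus strand, Smchd1 at chr17:71344489-71475366 on the minus strand, Dnmt3l at chr10:78042287-78063622 on the plus strand and Uhrf1 at chr17:56303337-56323486 on the plus strand. The windows are chr3:133544341-133544640 for Tet2, chr17:71475294-71475593 for Smchd1, chr10:78042037-78042336 for Dnmt3l and chr17:56303087-56303386 for Uhrf1.
Tet2: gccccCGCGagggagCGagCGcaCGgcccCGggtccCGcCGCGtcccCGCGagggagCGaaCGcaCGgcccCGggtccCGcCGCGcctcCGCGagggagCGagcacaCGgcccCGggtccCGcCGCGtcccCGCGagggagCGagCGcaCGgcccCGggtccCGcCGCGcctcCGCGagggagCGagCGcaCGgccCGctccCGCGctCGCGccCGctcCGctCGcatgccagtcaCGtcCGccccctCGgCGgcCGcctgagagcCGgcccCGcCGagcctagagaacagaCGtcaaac
Smchd1: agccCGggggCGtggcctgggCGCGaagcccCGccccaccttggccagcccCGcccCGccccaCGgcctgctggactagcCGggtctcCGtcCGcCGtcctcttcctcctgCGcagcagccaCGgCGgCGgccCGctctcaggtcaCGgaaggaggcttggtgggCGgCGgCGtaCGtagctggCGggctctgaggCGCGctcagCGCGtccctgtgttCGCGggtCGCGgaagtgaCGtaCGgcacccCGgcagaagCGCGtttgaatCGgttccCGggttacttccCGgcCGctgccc
Dnmt3l: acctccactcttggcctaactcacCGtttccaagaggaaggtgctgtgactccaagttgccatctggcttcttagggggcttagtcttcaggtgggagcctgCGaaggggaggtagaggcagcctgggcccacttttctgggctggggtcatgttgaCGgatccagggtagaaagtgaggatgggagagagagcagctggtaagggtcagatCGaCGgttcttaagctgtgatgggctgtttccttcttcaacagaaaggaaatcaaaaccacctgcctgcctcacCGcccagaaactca
Uhrf1: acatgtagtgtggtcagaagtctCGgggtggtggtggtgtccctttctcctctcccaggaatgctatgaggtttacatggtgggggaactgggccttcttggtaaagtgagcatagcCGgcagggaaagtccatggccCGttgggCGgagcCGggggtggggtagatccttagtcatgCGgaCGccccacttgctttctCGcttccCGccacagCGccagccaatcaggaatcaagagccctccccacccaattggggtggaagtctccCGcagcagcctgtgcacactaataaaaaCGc

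The Tet2 window held 57 CpG and the Smchd1 window 40, against 6 in the Dnmt3l window and 12 in the Uhrf1 window. Over 32851 windows of 27025 genes the median was 7 CpG, with quartiles at 3 and 20. A second annotated start of Uhrf1, with its window at chr17:56304063-56304362, held 33 CpG, and the other Dnmt3l windows held 4 and 3. By CpG count the Tet2 window was at percentile 99.9 of all windows, the Smchd1 window at 96.1 and the first Dnmt3l window at 43.6. The 2 Uhrf1 windows were at 60.4 and 91.4. Whether CpG content goes with the changes below was not tested. Of the other genes, single windows of Dnmt3b, Tet3 and Tet1 held 30, 22 and 17 CpG, the 3 windows of Dnmt3a held 46, 47 and 18, those of Dnmt1 held 33, 12 and 2, and those of Zfp57 held 6, 9 and 4. The GC box GGGCGG, searched on both strands, matched 13 of the 19 windows of the 10 genes and 35.7% of all windows. The E2F motif TTTNNCGC matched 4 of the 19, in Dnmt1, Uhrf1 and Zfp57, and 5.17% of all windows, while the TEAD motif CATTCC matched 4, in Dnmt3l, Uhrf1 and Zfp57, and 14.7% of all windows. The CCAAT box, CCAAT, matched 6 of the 19 and 37.4% of all windows, the E-box CACGTG 2 and 7.15%, the AP-2 motif GCCNNNGGC 3 and 16.6%, and the octamer ATGCAAAT 0 and 1.74%. These matches describe letters in the windows and not binding.

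The comparisons were 3 in number: p150DN 8-cell embryos against EGFP 8-cell embryos, EGFP blastocysts against EGFP 8-cell embryos, and p150DN 8-cell embryos against EGFP blastocysts. The first asks what interference with CAF-1 did to these genes within the 8-cell stage, and the second how they differ between the stages. These comparisons share libraries, so their values are set side by side and no overlap between them is scored. Each was tested on log2(FPKM + 1) with limma over all genes that passed the filter, and genes with a Benjamini-Hochberg adjusted p below 0.05 were called. Log2 fold changes on this scale understate the change of low genes.

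In p150DN 8-cell embryos Tet2, Dnmt3l, Uhrf1 and Dnmt3b were higher than in EGFP 8-cell embryos, and Smchd1 was lower, while Dnmt1, Dnmt3a, Tet1, Tet3 and Zfp57 were not called. That is 5 of 10 genes called, 4 higher and 1 lower, beside 34.3% called among all 11730 genes tested (24.6% higher and 9.68% lower). The median log2 fold change of the 10 genes was 0.047, beside 0.19 over all genes tested. Set against that median, the changes of Tet2, Dnmt3l, Uhrf1, Dnmt3b and Smchd1 were 2.40, 1.55, 0.78, 0.50 and -1.64 on the log2 scale. The groups did not overlap for 4 of the genes in the higher direction and 2 in the lower direction, beside 34.3% and 15.5% of all genes (49.8% in either direction). In EGFP blastocysts 6 of 10 were called against EGFP 8-cell embryos, with Tet2, Uhrf1, Dnmt3l and Dnmt3b higher and Smchd1 and Tet3 lower, beside 67.5% of 12199 genes (42.6% higher and 24.9% lower). The median of the 10 was 0.17, beside 0.28 over all genes tested. The stages did not overlap for 5 of the 10 in the higher and 3 in the lower direction, beside 49.3% and 30.3% of all genes (79.6% in either direction). With so much of the transcriptome called, the results below give the size and order of the changes among the 10 genes.

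**Figure D1:**
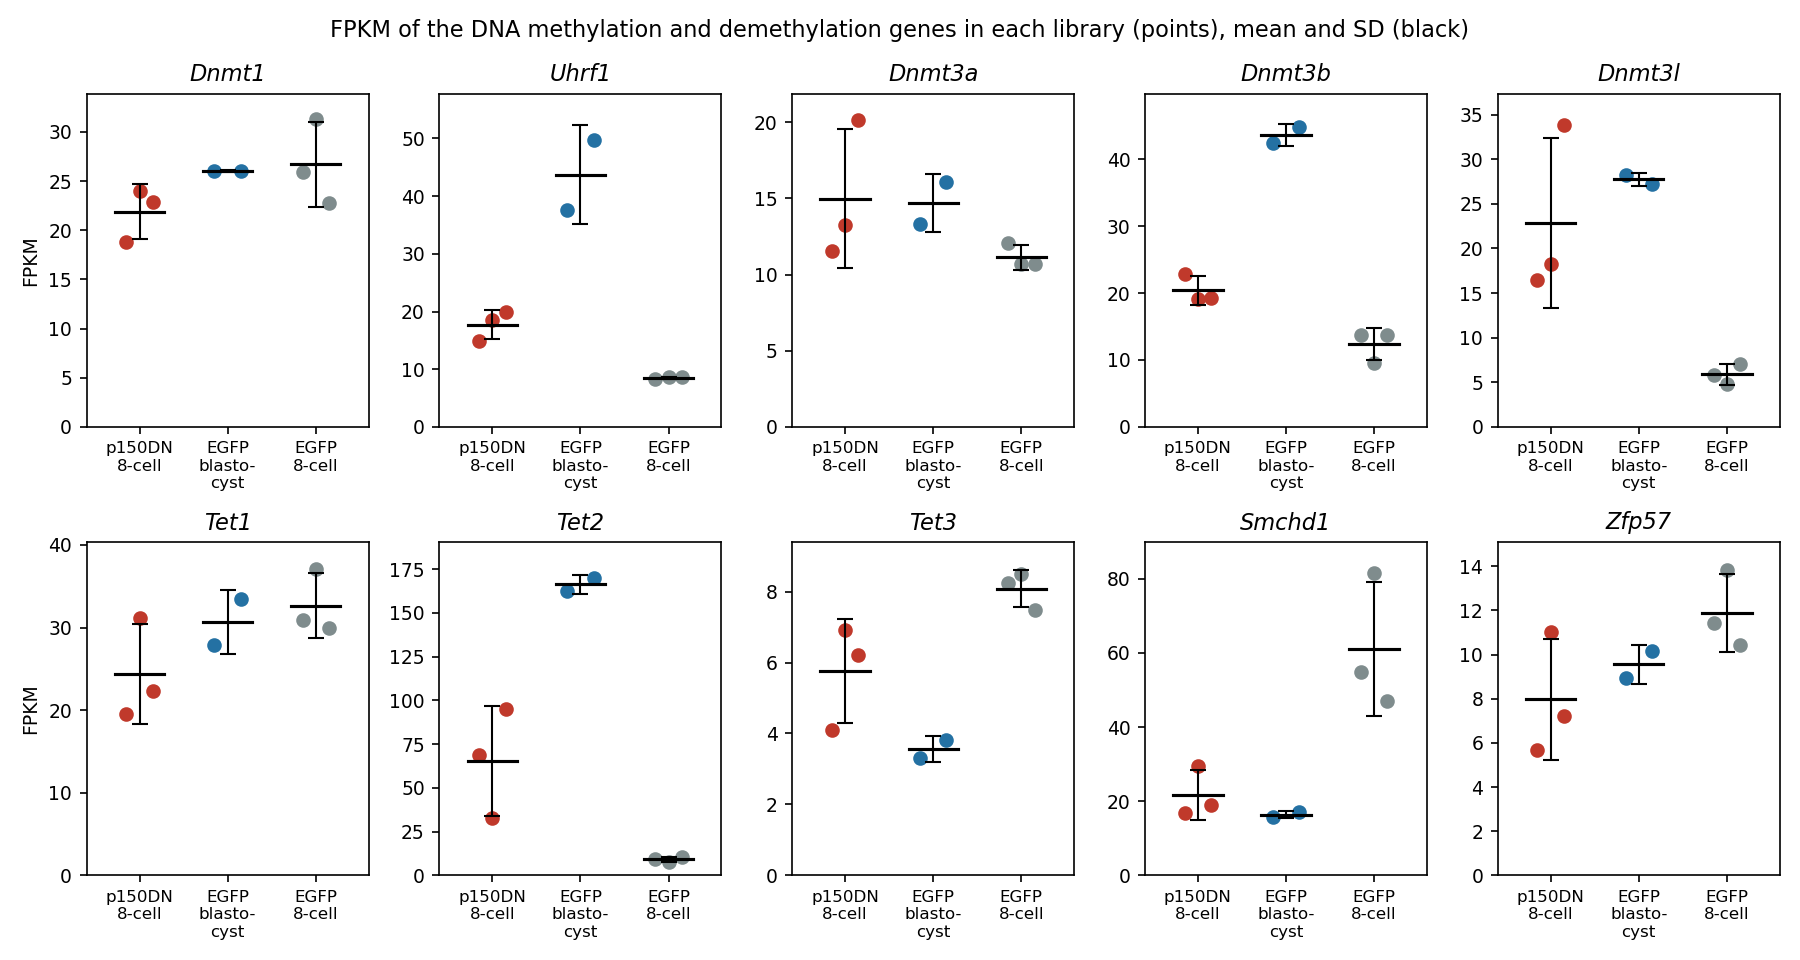
FPKM of each of the 10 genes (vertical axes, linear and starting at 0) in the 3 p150DN 8-cell, 2 EGFP blastocyst and 3 EGFP 8-cell libraries (points), with the mean and SD in black. Tet2, Dnmt3l, Dnmt3b and Uhrf1 have their lowest points in EGFP 8-cell embryos, and Smchd1 its highest.

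Maintenance genes came apart. Dnmt1, the maintenance methyltransferase, lies at chr9:20907206-20959888. It was at 18.8, 24.0 and 22.9 FPKM in p150DN 8-cell embryos, 26.1 and 26.0 FPKM in EGFP blastocysts and 26.0, 31.4 and 22.8 FPKM in EGFP 8-cell embryos. The 8-cell groups overlapped, and the blastocyst values lay inside the range of the EGFP 8-cell values. Its log2 fold change was -0.27 ± 0.16 (SE) with p150DN (limma, adjusted p = 0.231) and -0.023 ± 0.15 between the stages (limma, adjusted p = 0.901). With median-of-ratios scaling it was called lower with p150DN (limma, adjusted p = 0.0254).

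Uhrf1, which recruits DNMT1 to newly replicated DNA, was at 14.9, 18.4 and 19.9 FPKM in p150DN 8-cell embryos, 37.7 and 49.8 FPKM in EGFP blastocysts and 8.37, 8.58 and 8.61 FPKM in EGFP 8-cell embryos. No group overlapped another, and p150DN 8-cell embryos lay between EGFP 8-cell embryos and blastocysts. The log2 fold change was 0.97 ± 0.16 with p150DN (limma, adjusted p = 0.0025) and 2.22 ± 0.15 between the stages (limma, adjusted p = 4.68e-05). Per library, the ratio of Uhrf1 to Dnmt1 FPKM was 0.795, 0.767 and 0.868 in p150DN 8-cell embryos, 1.44 and 1.92 in EGFP blastocysts and 0.322, 0.274 and 0.378 in EGFP 8-cell embryos. Uhrf1 thus stood below Dnmt1 in all 6 8-cell libraries and above it in both blastocyst libraries. Uhrf1 and Chaf1a lie on the same chromosome, 235 kb apart.

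Of the de novo methyltransferase genes, Dnmt3l and Dnmt3b were called with p150DN and between the stages, and Dnmt3a in neither comparison. Differences between these genes were not tested. Dnmt3l, the cofactor gene, was at 16.4, 18.3 and 33.8 FPKM in p150DN 8-cell embryos, 28.3 and 27.2 FPKM in EGFP blastocysts and 5.81, 4.78 and 7.03 FPKM in EGFP 8-cell embryos. Every p150DN value exceeded every EGFP 8-cell value, and p150DN replicate 3 exceeded both blastocyst libraries. The log2 fold change was 1.74 ± 0.27 with p150DN (limma, adjusted p = 0.00198) and 2.08 ± 0.17 between the stages (limma, adjusted p = 9.01e-05).

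Dnmt3b, a de novo methyltransferase, lies at chr2:153649411-153687730. It was at 22.8, 19.1 and 19.2 FPKM in p150DN 8-cell embryos, 42.4 and 44.8 FPKM in EGFP blastocysts and 13.7, 9.61 and 13.7 FPKM in EGFP 8-cell embryos. The 3 groups did not overlap, with p150DN 8-cell embryos again in between. The log2 fold change was 0.69 ± 0.18 with p150DN (limma, adjusted p = 0.0162) and 1.76 ± 0.18 between the stages (limma, adjusted p = 0.000177). The p150DN call was lost with median-of-ratios scaling (log2 fold change 0.42; limma, adjusted p = 0.145), the same scaling over tested genes only (0.49; limma, adjusted p = 0.0749), quantile normalization (0.54; limma, adjusted p = 0.0555) and without p150DN replicates 2 and 3 (0.85; limma, adjusted p = 0.0535).

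Dnmt3a, the other catalytic de novo enzyme, lies at chr12:3801559-3914443. It was at 11.6, 13.3 and 20.2 FPKM in p150DN 8-cell embryos, 13.4 and 16.1 FPKM in EGFP blastocysts and 12.1, 10.7 and 10.7 FPKM in EGFP 8-cell embryos. The 8-cell groups overlapped, and both blastocyst libraries lay above the 3 EGFP 8-cell libraries. It was called neither with p150DN (log2 fold change 0.36 ± 0.21; limma, adjusted p = 0.203) nor between the stages (log2 fold change 0.37 ± 0.15; limma, adjusted p = 0.0594). RefSeq annotates pseudogenes named after Dnmt3a, Dnmt3b and Dnmt3l, so reads shared with these copies are uncertain. Aire overlaps the start of Dnmt3l and was at most 0.536 FPKM, and the non-coding gene Dnmt3aos overlaps Dnmt3a and was at most 1.09 FPKM.

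The 3 DNMT3 genes together gave 50.8, 50.6 and 73.2 FPKM in p150DN 8-cell embryos, 84.1 and 88.0 FPKM in EGFP blastocysts and 31.6, 25.1 and 31.5 FPKM in EGFP 8-cell embryos. Dnmt3l made up 32.3%, 36.1% and 46.2% of that sum in p150DN 8-cell embryos, 33.6% and 30.9% in EGFP blastocysts and 18.4%, 19.1% and 22.4% in EGFP 8-cell embryos. Dnmt3a made up 22.7%, 26.2% and 27.6% in p150DN 8-cell embryos, 15.9% and 18.2% in EGFP blastocysts and 38.2%, 42.6% and 34.0% in EGFP 8-cell embryos. In EGFP 8-cell embryos Dnmt3l was therefore below Dnmt3a in each library (ratio 0.482, 0.448 and 0.658), whereas it was above Dnmt3a in each p150DN library (1.42, 1.38 and 1.68) and each blastocyst library (2.12 and 1.70). These shares and ratios are descriptions with no test.

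The TET family differed most between the groups in which member was highest. Tet2 was at 68.7, 32.6 and 95.3 FPKM in p150DN 8-cell embryos, 163 and 170 FPKM in EGFP blastocysts and 9.48, 7.64 and 10.4 FPKM in EGFP 8-cell embryos. The groups did not overlap, and p150DN replicate 2 had the lowest value of its group. The log2 fold change was 2.59 ± 0.33 with p150DN (limma, adjusted p = 0.00094), the 68th highest of 11730 genes, and 4.05 ± 0.15 between the stages (limma, adjusted p = 1.13e-05), the 47th highest of 12199. By mean FPKM Tet2 ranked 1202 in p150DN 8-cell embryos, 414 in EGFP blastocysts and 5435 in EGFP 8-cell embryos among the 25220 symbols. It was called with the same sign under each of 15 alternative settings of the p150DN comparison, with log2 fold changes of 2.26 to 3.02.

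Tet1, at chr10:62804570-62887469, was at 19.6, 31.2 and 22.3 FPKM in p150DN 8-cell embryos, 27.9 and 33.4 FPKM in EGFP blastocysts and 30.9, 37.1 and 29.9 FPKM in EGFP 8-cell embryos. All 3 groups overlapped. Tet1 was not called with p150DN (log2 fold change -0.43 ± 0.19; limma, adjusted p = 0.105) or between the stages (log2 fold change -0.087 ± 0.15; limma, adjusted p = 0.616). It was called lower with p150DN under median-of-ratios scaling (limma, adjusted p = 0.0138) and without p150DN replicate 2 (limma, adjusted p = 0.0193).

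Tet3, the TET gene known for its maternal supply to the zygote, lies at chr6:83362373-83457208. It was at 4.11, 6.92 and 6.22 FPKM in p150DN 8-cell embryos, 3.299 and 3.81 FPKM in EGFP blastocysts and 8.24, 8.49 and 7.49 FPKM in EGFP 8-cell embryos. The groups did not overlap, with the order opposite to that of Tet2. Tet3 was lower in blastocysts (log2 fold change -0.99 ± 0.16; limma, adjusted p = 0.00126) and was not called with p150DN (log2 fold change -0.45 ± 0.20; limma, adjusted p = 0.116). It was called lower with p150DN under median-of-ratios scaling (limma, adjusted p = 0.0162) and quantile normalization (limma, adjusted p = 0.0146).

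Together the TET genes gave 92.4, 70.8 and 124 FPKM in p150DN 8-cell embryos, 194 and 207 FPKM in EGFP blastocysts and 48.6, 53.3 and 47.9 FPKM in EGFP 8-cell embryos. Tet2 made up 74.4%, 46.1% and 77.0% of the sum in p150DN 8-cell embryos, 83.9% and 82.0% in EGFP blastocysts and 19.5%, 14.3% and 21.8% in EGFP 8-cell embryos. Tet1 made up 21.2%, 44.1% and 18.0% in p150DN 8-cell embryos, 14.4% and 16.1% in EGFP blastocysts and 63.5%, 69.7% and 62.5% in EGFP 8-cell embryos. Tet2 was thus the highest TET transcript per length in all p150DN and blastocyst libraries, narrowly so in p150DN replicate 2, and Tet1 was the highest in all EGFP 8-cell libraries. The ratio of Tet2 to Tet3 was 16.7, 4.71 and 15.3 in p150DN 8-cell embryos, 49.3 and 44.6 in EGFP blastocysts and 1.15, 0.900 and 1.39 in EGFP 8-cell embryos.

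**Figure D2:**
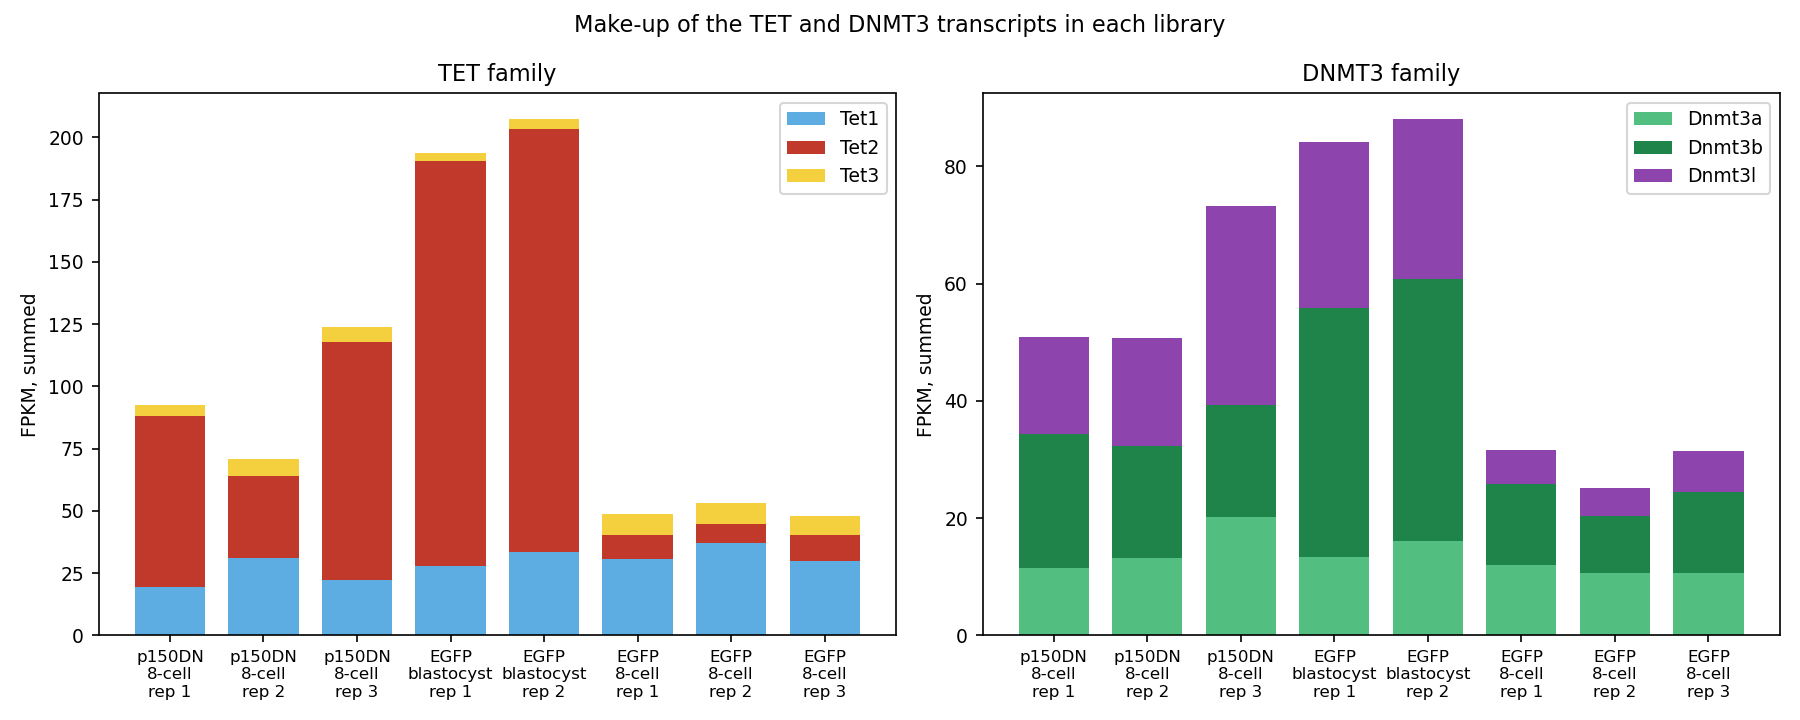
Summed FPKM (vertical axes) of the TET genes (left) and DNMT3 genes (right) in each library, with each bar stacked by gene. Tet2 makes up 46.1% to 77.0% of the TET bars in p150DN 8-cell embryos and 14.3% to 21.8% in EGFP 8-cell embryos, and Dnmt3l takes a larger part of the DNMT3 bars in p150DN 8-cell embryos and EGFP blastocysts than in EGFP 8-cell embryos.

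Smchd1 was the called gene that moved the other way. It was at 16.9, 29.5 and 19.0 FPKM in p150DN 8-cell embryos, 15.6 and 17.0 FPKM in EGFP blastocysts and 54.9, 81.5 and 47.0 FPKM in EGFP 8-cell embryos. The EGFP 8-cell libraries lay above all others, and the p150DN and blastocyst libraries overlapped. The log2 fold change was -1.45 ± 0.25 with p150DN (limma, adjusted p = 0.00316), the 68th lowest of 11730 genes, and -1.81 ± 0.22 between the stages (limma, adjusted p = 0.000426). It was called with the same sign under each of 15 alternative settings of the p150DN comparison, with log2 fold changes of -1.75 to -1.22. By mean FPKM Smchd1 ranked 3468 in p150DN 8-cell embryos, 4426 in EGFP blastocysts and 1364 in EGFP 8-cell embryos among all symbols.

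Zfp57, a zinc finger protein that binds methylated imprinted regions, lies at chr17:37001163-37010729. It was at 5.69, 11.0 and 7.21 FPKM in p150DN 8-cell embryos, 8.93 and 10.2 FPKM in EGFP blastocysts and 11.4, 13.8 and 10.4 FPKM in EGFP 8-cell embryos. The 8-cell groups overlapped through p150DN replicate 2. Zfp57 was called neither with p150DN (log2 fold change -0.56 ± 0.23; limma, adjusted p = 0.0937) nor between the stages (log2 fold change -0.28 ± 0.17; limma, adjusted p = 0.170). It was called lower with p150DN under median-of-ratios scaling (limma, adjusted p = 0.0161), quantile normalization (limma, adjusted p = 0.0261) and without p150DN replicate 2 (limma, adjusted p = 0.0183).

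Within each 8-cell group, replicate 2 had the lowest Tet2 and Dnmt3b and the highest Dnmt1, Tet1, Tet3, Smchd1 and Zfp57. The same libraries had the highest summed oocyte markers of their groups, at 58.5 FPKM in p150DN replicate 2 beside 26.4 and 49.7 FPKM in p150DN replicates 1 and 3, and at 67.1 FPKM in EGFP replicate 2 beside 58.9 and 57.1 FPKM in EGFP replicates 1 and 3. They also had the lowest summed inner cell mass markers, at 427 FPKM beside 631 and 598 FPKM with p150DN, and at 262 FPKM beside 349 and 413 FPKM with EGFP. Pou5f1 made up most of these sums, at 389 FPKM in p150DN replicate 2 and 235 FPKM in EGFP replicate 2. Nanog was lowest in p150DN replicate 2 (35.4 FPKM, beside 94.7 and 99.0 FPKM) but highest in EGFP replicate 2 (26.7 FPKM, beside 22.5 and 21.1 FPKM). Sox2 was the lowest of its group in neither library. The trophectoderm sum was lowest in EGFP replicate 2 (19.996 FPKM, beside 26.6 and 20.2 FPKM) but not in p150DN replicate 2 (304 FPKM, beside 250 and 452 FPKM). The part of these markers in the results was not tested.

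p150DN 8-cell embryos were also set against EGFP blastocysts. Tet2, Uhrf1 and Dnmt3b were lower in p150DN 8-cell embryos and the other 7 genes were not called, which is 3 of 10 beside 26.1% of 12648 genes (14.2% lower and 11.9% higher). The median of the 10 log2 fold changes was -0.31, beside -0.05 over all genes tested. The values were -1.46 ± 0.39 for Tet2 (limma, adjusted p = 0.0347), -1.25 ± 0.19 for Uhrf1 (limma, adjusted p = 0.00732) and -1.06 ± 0.15 for Dnmt3b (limma, adjusted p = 0.00621). The groups did not overlap for 1 gene in the higher and 4 in the lower direction, beside 27.1% and 33.8% of all genes (61% in either direction). Without blastocyst replicate 2 none of the 10 was called, with log2 fold changes of -1.43 for Tet2, -1.05 for Uhrf1 and -1.03 for Dnmt3b. Without blastocyst replicate 1 Tet2 was lost (-1.49; limma, adjusted p = 0.133), while Uhrf1 (-1.45; limma, adjusted p = 0.0362) and Dnmt3b (-1.10; limma, adjusted p = 0.0499) were called. Dnmt3l (log2 fold change -0.34 ± 0.29; limma, adjusted p = 0.402) and Smchd1 (0.36 ± 0.24; limma, adjusted p = 0.286) were not called, which does not show that their levels were alike. Tet3 was at higher values in every p150DN library than in either blastocyst library but was not called (0.54 ± 0.24; limma, adjusted p = 0.130).

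**Figure D3:**
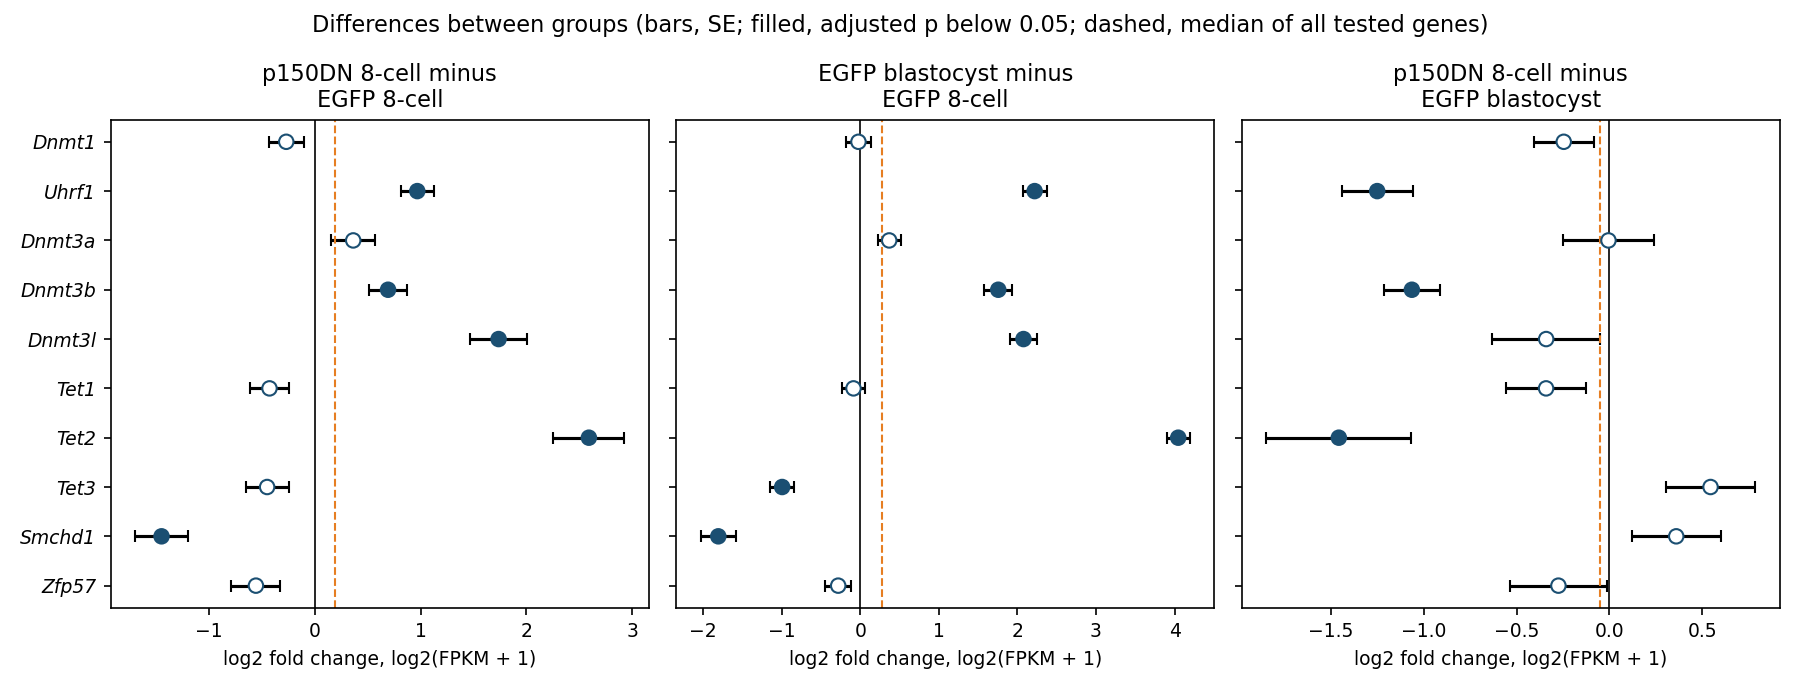
Log2 fold change on log2(FPKM + 1) (horizontal axes) of the 10 genes in the 3 comparisons, with bars for the SE, filled points for adjusted p below 0.05 and a dashed line at the median of all genes tested. Tet2, Dnmt3l, Uhrf1 and Dnmt3b are filled right of 0 and Smchd1 left of 0 in the left and middle panels, which share the EGFP 8-cell libraries.

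Across all 3 groups the means place Tet2 first among the 10 genes in p150DN 8-cell embryos (65.6 ± 31.5 FPKM, SD, n = 3) and in EGFP blastocysts (166 ± 5.28 FPKM, SD, n = 2). In EGFP 8-cell embryos Smchd1 came first (61.2 ± 18.1 FPKM, SD, n = 3) and Tet1 second (32.6 ± 3.91 FPKM), with ranges that did not overlap, while Tet2 (9.19 ± 1.42 FPKM) and Uhrf1 (8.52 ± 0.135 FPKM) overlapped. Tet2 overlapped Dnmt3l in p150DN 8-cell embryos through its replicate 2. Below Tet2, the values of Tet1 (24.4 ± 6.08 FPKM), Dnmt3l (22.8 ± 9.54 FPKM), Dnmt1 (21.9 ± 2.78 FPKM), Smchd1 (21.8 ± 6.73 FPKM) and Dnmt3b (20.4 ± 2.13 FPKM) overlapped one another in p150DN 8-cell embryos. In EGFP blastocysts Uhrf1 (43.7 ± 8.59 FPKM) and Dnmt3b (43.6 ± 1.63 FPKM) came next after Tet2 and overlapped. Tet3 was the lowest of the 10 by mean in p150DN 8-cell embryos (5.75 ± 1.47 FPKM) and EGFP blastocysts (3.56 ± 0.364 FPKM), and Dnmt3l was the lowest in EGFP 8-cell embryos (5.87 ± 1.13 FPKM).

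Likeness of pattern was measured as Pearson's r of log2(FPKM + 1) over the 8 libraries, against 7403 genes of at least 5 FPKM on average. The points share 3 groups, so r mostly measures the order of the group means and is a description. Tet2 was most like Ctbp1 (r = 0.999), Slc25a39 (0.996) and Cbx1 (0.996), and 695 genes reached r of 0.95 with it. Uhrf1 was most like Klf6 (0.997), Dnmt3b most like Snx1 (0.996), Dnmt3l most like Serpinb9b (0.987) and Smchd1 most like Hipk1 (0.997), with 450, 344, 236 and 131 genes at 0.95 or more. Tet3 was most like Chic1 (0.991), with 165 such genes. Tet1 and Zfp57 were each other's closest match (0.970) and had 3 and 4 such genes, whereas Dnmt1 and Dnmt3a had 1 each, Camsap2 (0.959) and Tfe3 (0.962).

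Other genes of the pathway were read from the same fits, in which 34.3% of all genes were called with p150DN (24.6% higher and 9.68% lower, median log2 fold change 0.19) and 67.5% between the stages (42.6% higher and 24.9% lower, median 0.28). Of 13 maintenance and imprint partners, 3 were higher and 1 lower in p150DN 8-cell embryos than in EGFP 8-cell embryos and 9 were not called, a share near the 34.3% of all genes. The median log2 fold change was -0.10, beside 0.19 over all genes. Without p150DN replicates 2 and 3, it was 0.048, beside 0.10 over all genes. Lig1, the ligase that joins replicated strands, was at 25.6, 19.4 and 26.4 FPKM in p150DN 8-cell embryos, 56.3 and 62.6 FPKM in EGFP blastocysts and 11.8, 12.3 and 12.2 FPKM in EGFP 8-cell embryos. No group overlapped another, the order seen for Uhrf1. Pcna, the replication clamp (0.66), and the Uhrf1 relative Uhrf2 (0.68) were also higher with p150DN, and Ehmt2, a histone H3K9 methyltransferase (-0.54), was lower, by log2 fold change. Dppa3, which protects the maternal genome from oxidation by TET3, averaged 2210 FPKM in p150DN 8-cell embryos and 2372 FPKM in EGFP 8-cell embryos and was not called (limma, adjusted p = 0.518). Between the stages 3 of the 13 were higher, Lig1 most (2.20 ± 0.12; limma, adjusted p = 2.34e-05), and 4 were lower, among them Dppa3 (-0.30 ± 0.10; limma, adjusted p = 0.0329). These 7 calls became 2 without blastocyst replicate 1, 3 without blastocyst replicate 2 and 4 with the replicate block.

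Of 20 genes of the methyl donor cycle, which makes S-adenosylmethionine and clears its product, 17 were tested, and 7 were higher and 2 lower with p150DN, beside 24.6% and 9.68% of all genes, with a median log2 fold change of 0.39 beside 0.19. Cbs, which drains homocysteine into cysteine synthesis, was at 11.3, 11.1 and 9.71 FPKM in p150DN 8-cell embryos, 23.6 and 17.6 FPKM in EGFP blastocysts and 1.32, 1.07 and 0.95 FPKM in EGFP 8-cell embryos. Its log2 fold change was 2.47 ± 0.18 (limma, adjusted p = 0.000135), and the groups did not overlap. Mat2a, the catalytic subunit that makes S-adenosylmethionine, was at 148, 184 and 164 FPKM in p150DN 8-cell embryos, 101 and 106 FPKM in EGFP blastocysts and 258, 242 and 237 FPKM in EGFP 8-cell embryos. Mat2a was lower with p150DN (-0.57 ± 0.12; limma, adjusted p = 0.00712), as was its regulatory partner Mat2b (-0.96 ± 0.23; limma, adjusted p = 0.0142). Ahcy, which clears S-adenosylhomocysteine (1.43), Shmt2 (1.02), Mtr (0.84), Mtap (0.71), Ahcyl1 (0.64) and Mthfd1 (0.38) were higher, by log2 fold change. The count of 9 called fell to 5 without p150DN replicate 3. Between the stages 9 of 17 were higher and 3 lower, beside 42.6% and 24.9% of all genes.

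Of 15 base excision and active demethylation genes 11 were tested, and 4 were higher and 1 lower with p150DN, beside 34.3% of all genes called. The median was 0.22, beside 0.19 over all genes. It was -0.013 with median-of-ratios scaling and -0.18 with quantile normalization, beside -0.060 and -0.035 over all genes. A filter of 5 FPKM left 7 of these genes tested, with a median of -0.19 beside 0.10 over all genes. Gadd45b (1.69), Gadd45a (0.82), Neil1 (0.72) and Xrcc1 (0.56) were higher and the uracil glycosylase gene Ung (-0.61) was lower, by log2 fold change. The count of 5 called was 2 without EGFP 8-cell replicate 1 or without p150DN replicate 3. It was 3 without EGFP 8-cell replicate 2 or p150DN replicate 1, and with median-of-ratios scaling or quantile normalization. It was also 3 with no filter, which tested 15 genes, and with a filter of 5 FPKM, which tested 7. Tdg, the glycosylase that removes the oxidised bases made by TET enzymes, was at 0.878, 0.160 and 0.188 FPKM in p150DN 8-cell embryos, 8.28 and 7.19 FPKM in EGFP blastocysts and 0.0682, 0 and 0.0294 FPKM in EGFP 8-cell embryos. It was too low to be tested among 8-cell embryos and was higher in blastocysts (log2 fold change 3.08 ± 0.16; limma, adjusted p = 2.23e-05), though RefSeq lists copies named after Tdg that may share its reads. In p150DN 8-cell embryos Tet2 was thus at 32.6 FPKM or more while Tdg was under 1 FPKM. EGFP 8-cell embryos likewise had Tdg under 1 FPKM, with Tet1 at 29.9 to 37.1 FPKM. Every p150DN value of Tdg, though low, lay above every EGFP 8-cell value. Between the stages 6 of 12 tested were higher and 1 lower, beside 67.5% of all genes called, and 4 in all were called when either blastocyst library was left out.

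Of 10 methyl-CpG binding genes 7 were tested, and Mbd1 (1.07), Mbd2 (0.75) and Mbd6 (0.68) were higher with p150DN and none lower, by log2 fold change, beside 34.3% of all genes called. The median of the tested genes was 0.20, beside 0.19 over all genes. It was -0.043 with median-of-ratios scaling and -0.11 with quantile normalization, beside -0.060 and -0.035 over all genes. Of 8 CXXC zinc finger genes, whose products bind unmethylated CpG, 7 were tested, and Cxxc5 (1.10) and Kmt2a (0.93) were higher and none lower. Their median was 0.35, beside 0.19 over all genes. Without p150DN replicates 2 and 3, it was -0.0020 over the 5 genes still tested, beside 0.10 over all genes. The methyl-CpG binding count was 1 without EGFP 8-cell replicate 1, and the CXXC count was 1 without EGFP 8-cell replicate 1 or 3 and 0 without p150DN replicate 2 or 3. With quantile normalization the counts were 1 and 0, beside 3575 of all 11730 genes tested. A filter of 5 FPKM kept only 3 and 5 of the genes in the test. The counts were then also 1 and 0, beside 2875 of 7621 genes. Between the stages 5 of 8 methyl-CpG binding genes were higher and 1 lower, and 3 of 7 CXXC genes were higher and 1 lower, beside 67.5% of all genes called. Without blastocyst replicate 2 these counts of called genes were 3 and 1, and without blastocyst replicate 1 the methyl-CpG binding count was 3. The maintenance count of 4 was 2 without EGFP 8-cell replicate 1, 2 or 3, without p150DN replicate 3, or with median-of-ratios scaling.

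**Figure D4:**
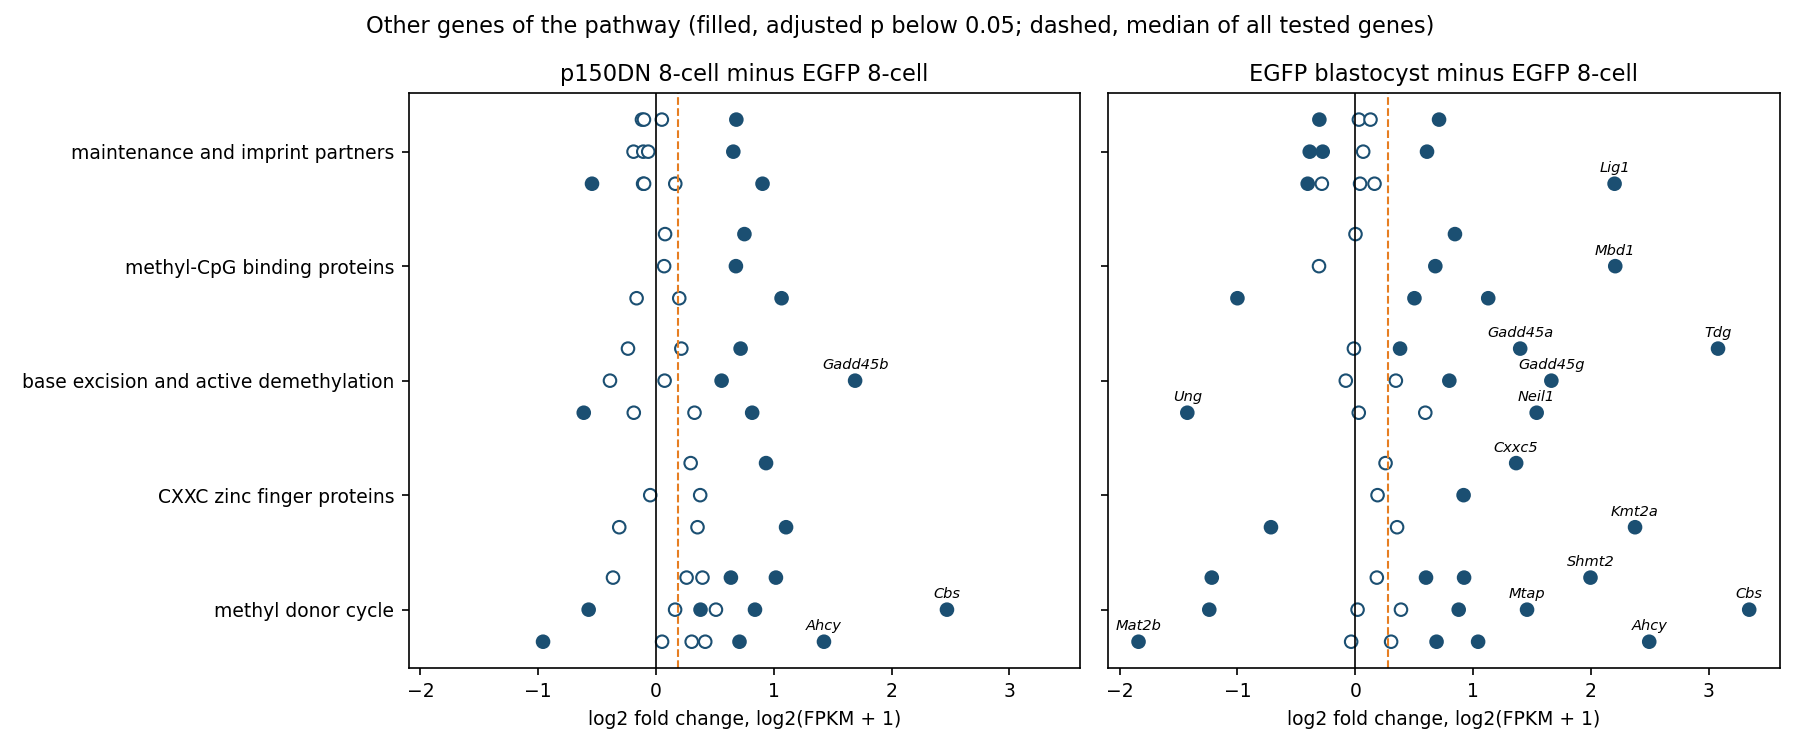
Log2 fold change on log2(FPKM + 1) (horizontal axes) of the tested genes of 5 lists (rows, points spread vertically for legibility), with filled points for adjusted p below 0.05 and a dashed line at the median of all genes tested. Cbs lies farthest right in both panels, which share the EGFP 8-cell libraries.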

How the data were processed

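The authors deposited FPKM values for 25220 gene symbols, per the file headers, with 1 column for each of the 8 RNA-seq libraries. Per the submitters' processing notes, HISAT2, featureCounts, Trim Galore, SAMtools and Bowtie2 were used, with mm10. Neither the gene models nor the strandedness of the counting is stated, which leaves overlapping and antisense genes uncertain. Columns named only for 8-cell embryos were taken as the EGFP 8-cell libraries, the other 8-cell RNA-seq group in the labels. FPKM fixes each library's total, so a change in RNA per embryo cannot be seen.

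Depth was recovered from genes under 300 bases, whose most frequent FPKM times length is 1 fragment; 23314 of 23316 genes above 0 then held whole fragments, within 0.02. Replicates differed beyond counting noise and each library counted as 1 replicate. Two-sided tests used limma 3.58.1 (R 4.3.3; lmFit, then eBayes with a trend) on log2(FPKM + 1), kept genes reaching 1 FPKM in 3 libraries, or in 2 where blastocysts were compared, and held only the compared groups in each fit. Coordinates and promoters came from RefSeq tables of GRCm38.p6, which matched 24920 symbols and all 10 genes. Every one of the 10 genes is named; of the pathway lists, genes called in either comparison with EGFP 8-cell embryos may be named. The fits were tested on data simulated with the scatter of the EGFP 8-cell libraries. That test does not cover the wider scatter of the p150DN libraries (r between replicates 0.977 to 0.982, beside 0.986 to 0.990 for EGFP 8-cell). The genes and lists were chosen with earlier results of these data known. Alternatives changed the pseudocount, filter, scaling, libraries in the fit and replicate block.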

Additional observations from a re-analysis of the deposited data

How the results depend on the processing

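Tet2, Dnmt3l, Uhrf1 and Smchd1 kept their p150DN calls and signs against EGFP 8-cell embryos under all 15 alternatives, and Tet2, Uhrf1, Dnmt3l, Dnmt3b, Smchd1 and Tet3 kept their stage calls under all 13. With median-of-ratios scaling 8 of the 10 genes were called with p150DN (3 higher and 5 lower), and likewise 8 with that scaling over tested genes only, an alternative chosen after seeing the data. The genes added as lower were Dnmt1, Tet1, Tet3 and Zfp57, and Dnmt3b was lost. With median-of-ratios scaling their log2 fold changes were -0.55, -0.71, -0.71, -0.82 and 0.42, beside -0.27, -0.43, -0.45, -0.56 and 0.69. The median of all genes went the same way, from 0.19 to -0.060, so these are not separate changes of single genes. Of all genes these scalings called 1753 higher and 2239 lower, and 2023 higher and 1994 lower, and quantile normalization 1748 higher and 1827 lower, beside 2887 higher and 1136 lower. Between the stages the split was 3997 higher and 3902 lower with quantile normalization and 4027 higher and 3985 lower with scaling over tested genes, beside 5198 higher and 3038 lower. Without p150DN replicates 2 and 3, 2314 genes and 7 of the 10 were called, with the lone p150DN library assumed to vary like the others. Leaving out 1 library gave 2238 to 3553 genes and 5 to 7 of the 10 (p150DN against EGFP 8-cell; 2238 without p150DN replicate 3 and 2560 without EGFP 8-cell replicate 1), 5459 to 8144 genes and 6 of the 10 (stages), and 323 to 4215 genes and 0 to 4 of the 10 (p150DN 8-cell against blastocyst; 501 without blastocyst replicate 1 and 323 without blastocyst replicate 2). In that last comparison no filter gave 1555 genes and lost Tet2 (limma, adjusted p = 0.0902). Signs turned only for genes not called: Dnmt1 between the stages (0.095 without EGFP 8-cell replicate 2; range over left-out libraries -0.13 to 0.095), Tet1 between the stages (0.0070 without EGFP 8-cell replicate 2 and 0.040 without blastocyst replicate 1; range -0.21 to 0.040) and Dnmt3a with p150DN against blastocysts (0.079 with quantile normalization, 0.048 with scaling over tested genes, 0.12 without blastocyst replicate 2, and 0.15 and 0.059 without p150DN replicate 1 or 2; range -0.23 to 0.15). Of 420 alternative values for the 10 genes, 381 kept sign and call.

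Replicate numbers were not taken to pair the libraries. Over all genes tested, deviations of same-numbered p150DN and EGFP 8-cell libraries correlated at 0.06, 0.10 and 0.03. Among the 10 genes, replicate 2 stood out alike in both 8-cell groups for the genes named above. With the replicate block the SE with p150DN was 0.22 for Tet2, 0.14 for Smchd1 and 0.19 for Dnmt3l, beside 0.33, 0.25 and 0.27. It was slightly larger with the block for Dnmt3a, Tet3 and Uhrf1. p150DN replicates 2 and 3 correlated best with their own number and p150DN replicate 1 with EGFP replicate 3 (0.08), so not every library did so. With the replicate block 4081, 7847 and 3126 genes and 5, 6 and 3 of the 10 were called in the order of the report. The 4081 and 7847 were of 11730 and 11993 genes tested. Depth did not limit the 10 genes, each with 258 or more fragments per library.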
